A study of Mus musculus with 24 samples.

Results

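Globins and genes that serve the red blood cell were read in 12 mouse samples, for 9 genes chosen by symbol: Hba-x, Hbb-y, Hbb-bh1, Hba-a1, Alas2, Slc4a1, Epor, Klf1 and Gata1. Of the 9 genes, 8 had a gene-level row of their own among the 19920 genes that could be tested, and Hba-a1 was found only in 2 rows that also name Hba-a2. The samples were measured on mouse gene arrays (Affymetrix), with 2 arrays in each of 6 groups: ES cells at day 0, embryonic bodies at day 7 (the aggregates that ES cells form as they differentiate), cardiac bodies at day 14, and hearts at E17.5, at P1 (newborn pups) and in adults. The cultures were kept in a DMEM medium with 10% serum. The labels name no strain, genotype, cell line, sex or adult age and do not say whether replicates came from separate cultures or animals, so p-values measure the spread between these arrays, which may be technical. Values are log2 signals, on which a difference of 1 is a 2-fold change.

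Red cells carry oxygen on hemoglobin, a tetramer of alpha-type and beta-type globin chains with heme. In the mouse the first red cells arise in the yolk sac and make embryonic globins, and later red cells from the fetal liver and the bone marrow make adult globins. The alpha-type genes lie in one cluster and the beta-type genes in another. Gata1 and Klf1 are the transcription factors best known for switching on red cell genes, Epor receives the erythropoietin signal, Alas2 starts heme synthesis in red cells, and Slc4a1 (band 3) is the anion exchanger of the red cell membrane. The heart does not make red cells but holds blood, and young red cells still carry globin RNA.

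Promoters were available from RefSeq (GRCm38.p6) for 7 of the 9 genes, each running from 250 bases before the annotated start to 50 after it. Those of an embryonic alpha-type, an embryonic beta-type and an adult alpha-type globin gene and of Alas2 are shown because these genes read high together on 1 array described below. Capitals mark the GATA words searched for (AGATAA or its variant AGATAG, and also TGATAA or its variant TGATAG, on either strand), and each sequence reads 5′ to 3′ along the gene. The windows are chr11:32276350-32276649 (plus strand) for Hba-x, chr7:103853158-103853457 (minus strand) for Hbb-y, chr11:32283422-32283721 (plus strand) for Hba-a1 and chrX:150547167-150547466 (plus strand) for Alas2.
Hba-x: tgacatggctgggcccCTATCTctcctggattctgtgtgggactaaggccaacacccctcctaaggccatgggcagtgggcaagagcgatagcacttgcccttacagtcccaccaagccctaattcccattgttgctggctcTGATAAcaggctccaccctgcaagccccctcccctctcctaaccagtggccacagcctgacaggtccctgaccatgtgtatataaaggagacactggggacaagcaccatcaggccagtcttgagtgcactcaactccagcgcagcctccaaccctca
Hbb-y: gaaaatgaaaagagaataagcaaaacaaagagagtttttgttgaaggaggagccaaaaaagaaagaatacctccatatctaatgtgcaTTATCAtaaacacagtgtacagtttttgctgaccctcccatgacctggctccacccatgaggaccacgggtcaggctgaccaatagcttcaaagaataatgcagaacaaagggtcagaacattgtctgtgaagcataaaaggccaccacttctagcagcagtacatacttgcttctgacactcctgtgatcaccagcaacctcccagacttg
Hba-a1: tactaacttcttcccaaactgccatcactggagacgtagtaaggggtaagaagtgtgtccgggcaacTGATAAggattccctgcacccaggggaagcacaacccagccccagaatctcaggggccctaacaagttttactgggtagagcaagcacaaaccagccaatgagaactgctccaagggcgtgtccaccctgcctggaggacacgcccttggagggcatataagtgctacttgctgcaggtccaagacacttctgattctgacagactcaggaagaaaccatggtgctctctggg
Alas2: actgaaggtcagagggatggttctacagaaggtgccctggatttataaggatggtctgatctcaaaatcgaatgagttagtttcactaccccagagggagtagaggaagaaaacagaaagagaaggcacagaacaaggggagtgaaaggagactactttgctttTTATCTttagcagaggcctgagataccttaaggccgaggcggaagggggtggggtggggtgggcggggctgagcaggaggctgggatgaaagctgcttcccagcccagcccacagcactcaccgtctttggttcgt
A GATA word stood in 6 of the 7 promoters, against 29.8% of 32851 RefSeq promoters of this length. In Hba-x the TGATAA begins 108 bases before the start and a second word, read as CTATCT, 234 bases before it. In Hbb-y the word reads TTATCA, 162 bases before the start. In Hba-a1 TGATAA begins 183 bases before the start, and in Alas2 TTATCT begins 86 bases before it. The 7 promoters included 4 with CCNCNCCC, the CACC-type word, searched on both strands (49.5% of all promoters), and 3 with CCAAT, also on both strands (37.4%). A match is a description of these letters and was not tested as a binding site.

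The embryonic body arrays differed strongly from each other, and this touches every result below. Over all 19920 genes, 318 (1.6%) were higher by over 1 in embryonic body replicate 1 than in replicate 2, and 230 were lower by as much. Among P1 hearts 991 genes read that much higher in replicate 1, and 85 in replicate 2. Array medians lay between 5.93 and 6.18. The lists of marker genes followed most labels: the mean of 12 pluripotency markers was 10.77 and 10.81 in ES cells and 5.11 to 5.42 in hearts, and that of 12 cardiac muscle markers was 10.86 to 12.50 in cardiac bodies and hearts and at most 6.29 in ES cells and embryonic bodies. The cardiac means hide a gap between the adult hearts in Myl7, at 5.42 in replicate 1 and 11.27 in replicate 2. Pluripotency markers had means of 7.74 and 7.73 in embryonic bodies and 9.85 and 10.08 in cardiac bodies. Signals were not tested against background, so a low value is not a statement that a gene is silent, and signals of different genes are not set against each other.

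The embryonic globins were highest in embryonic body replicate 1. Hba-x, the embryonic alpha-type (zeta) globin gene, read 4.88 and 5.19 in ES cells, 11.32 and 6.19 in embryonic bodies, 5.62 and 5.28 in cardiac bodies, 6.40 and 7.68 in E17.5 hearts, 5.51 and 5.81 in P1 hearts and 6.02 and 5.99 in adult hearts, replicate 1 first in each group. Replicate 1 of the embryonic bodies stood above every other array, and both E17.5 hearts stood above the other hearts. Replicate 2 of the embryonic bodies lay below both E17.5 hearts, so these groups overlap.

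Hbb-y, an embryonic beta-type globin gene (epsilon-y), read 4.26 and 4.25 in ES cells, 11.32 and 5.88 in embryonic bodies, 4.09 and 4.27 in cardiac bodies, 7.13 and 8.62 in E17.5 hearts, 4.52 and 4.51 in P1 hearts and 3.98 and 5.28 in adult hearts. After embryonic body replicate 1 the next highest arrays were the E17.5 hearts, which did not overlap the later hearts. The adult pair straddled the P1 pair.

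Hbb-bh1, the other embryonic beta-type globin gene, read 3.39 and 3.44 in ES cells, 11.07 and 5.29 in embryonic bodies, 3.60 and 3.20 in cardiac bodies, 3.58 and 3.77 in E17.5 hearts, 3.06 and 3.44 in P1 hearts and 3.95 and 4.22 in adult hearts. Both embryonic body arrays stood above all 10 others, and they alone passed 5. In E17.5 hearts the gene had a mean of 3.67, against 3.41 in ES cells.

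The adult alpha-globin gene Hba-a1 shares its rows with the near-identical Hba-a2, so the signal cannot be given to either gene and no test was run. The first shared row read 6.27 and 5.58 in ES cells, 11.36 and 7.25 in embryonic bodies, 5.85 and 5.78 in cardiac bodies, 13.85 and 14.01 in E17.5 hearts, 12.90 and 13.31 in P1 hearts and 13.20 and 13.27 in adult hearts. All 6 hearts stood above all 6 cultures, and among the cultures both embryonic body arrays stood highest. In the second row embryonic body replicate 1 read 11.11 and the hearts 12.70 to 13.86, with the same order of groups.

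The adult beta-globin rows are also shared among near-identical genes and were not tested. The first read 13.96 and 14.11 at E17.5, 13.06 and 13.51 at P1 and 11.79 and 12.09 in adults. Its adult mean was 1.35 below its P1 mean and that of the second row 1.15 below, and the adult means of the alpha-globin rows were 0.13 and 0.16 above theirs. At E17.5 and P1 these rows were among the brightest on the array, where signals may be compressed, so a difference between the courses of alpha and beta rows was not tested. In embryonic bodies the first beta row read 8.10 and 6.22, a gap of 1.88 between replicates against 4.11 and 3.98 in the alpha rows.

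Alas2, the red cell form of the first enzyme of heme synthesis, read 5.10 and 4.97 in ES cells, 8.71 and 5.85 in embryonic bodies, 4.80 and 4.80 in cardiac bodies, 10.49 and 11.61 in E17.5 hearts, 7.46 and 8.62 in P1 hearts and 8.58 and 9.11 in adult hearts. Here the E17.5 hearts were highest, and embryonic body replicate 1 lay within the range of the P1 and adult hearts. Both embryonic body arrays stood above the ES cells and cardiac bodies.

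Slc4a1, the band 3 anion exchanger, read 5.74 and 5.30 in ES cells, 6.72 and 5.09 in embryonic bodies, 5.40 and 5.37 in cardiac bodies, 8.05 and 9.20 in E17.5 hearts, 5.97 and 6.83 in P1 hearts and 6.65 and 7.39 in adult hearts. The E17.5 hearts were apart from all other arrays. Embryonic body replicate 2 was the lowest of the 12, while replicate 1 was the highest of the cultures.

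Epor, the erythropoietin receptor, read 6.35 and 6.15 in ES cells, 7.49 and 6.46 in embryonic bodies, 6.27 and 6.17 in cardiac bodies, 5.68 and 5.99 in E17.5 hearts, 5.97 and 6.29 in P1 hearts and 5.72 and 5.51 in adult hearts. Both embryonic body arrays were the highest, and neighbouring groups below them overlapped.

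Klf1, the red cell Krüppel-like factor, read 4.57 and 4.97 in ES cells, 5.95 and 4.71 in embryonic bodies, 5.07 and 4.74 in cardiac bodies, 4.76 and 4.91 in E17.5 hearts, 4.37 and 4.85 in P1 hearts and 4.74 and 5.23 in adult hearts. Embryonic body replicate 1 was the highest array, and all neighbouring groups in the order of means overlapped.

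Gata1, the GATA factor of red cells and megakaryocytes, read 5.40 and 5.26 in ES cells, 6.82 and 4.55 in embryonic bodies, 4.86 and 4.92 in cardiac bodies, 4.73 and 4.85 in E17.5 hearts, 4.68 and 4.51 in P1 hearts and 4.53 and 4.81 in adult hearts. Embryonic body replicate 1 was again the highest array, while replicate 2 was below both ES cell arrays.

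**Figure D1:**
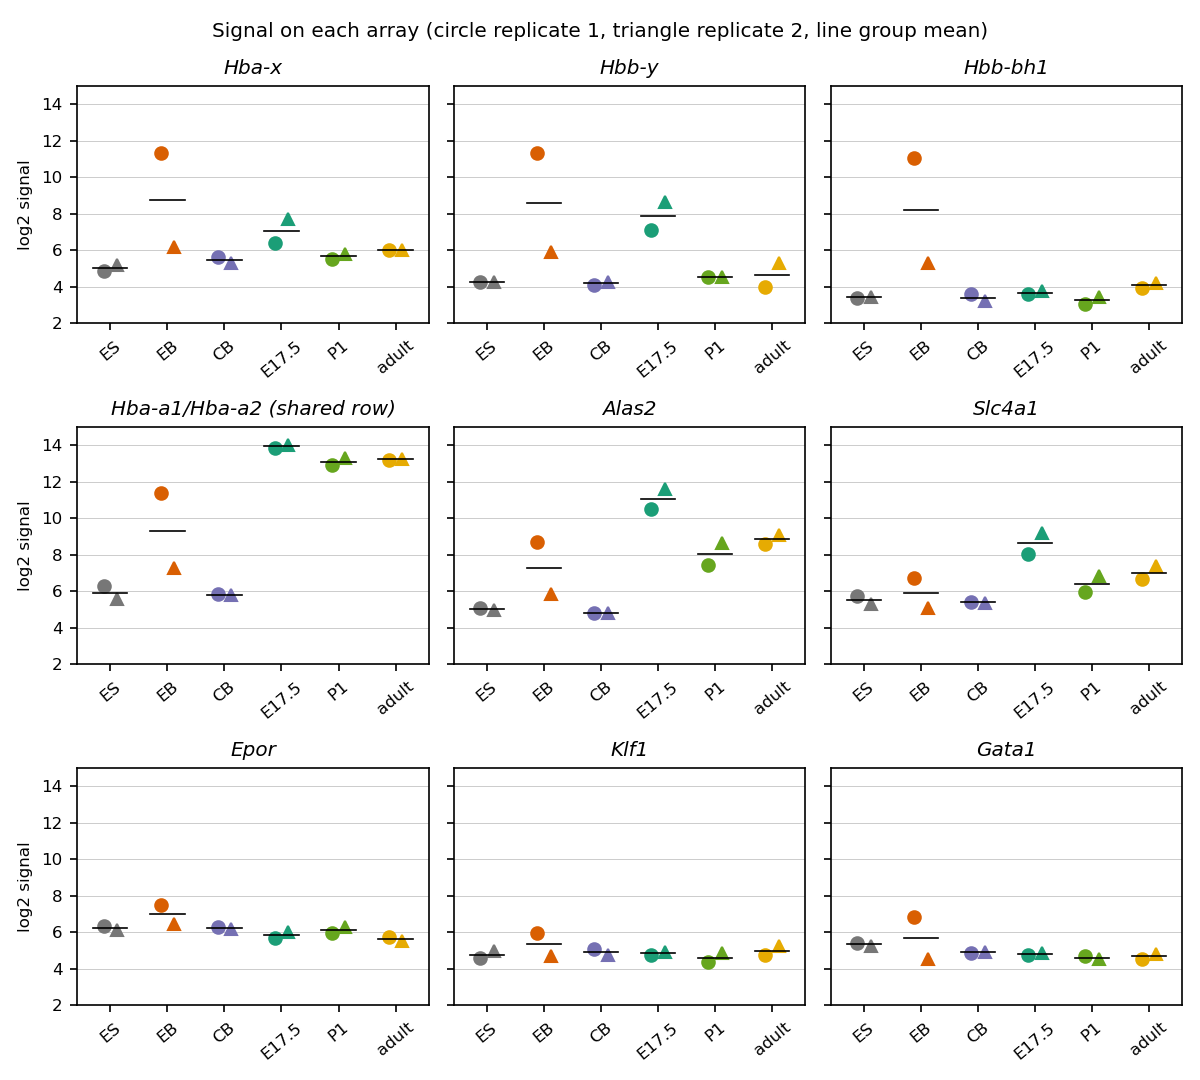
Log2 signal (vertical axis) of each gene on each of the 12 arrays by group (horizontal axis: ES cells, embryonic bodies EB, cardiac bodies CB, and hearts), with circles for replicate 1, triangles for replicate 2 and lines for group means; for Hba-a1 the first row shared with Hba-a2 is drawn. Embryonic body replicate 1 is the highest array for Hba-x (11.32), Hbb-y (11.32), Hbb-bh1 (11.07), Epor (7.49), Klf1 (5.95) and Gata1 (6.82), and the E17.5 hearts are highest for Alas2, Slc4a1 and the shared row.

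Set directly against each other, the embryonic body replicates differed more in the 3 embryonic globins than in any other of the 19920 genes tested. Hbb-bh1 was higher in replicate 1 by 5.78 on the log2 scale (55.1-fold), Hbb-y by 5.44 (43.3-fold) and Hba-x by 5.12 (34.9-fold), ranks 1, 2 and 3 of 19920. Alas2 followed with 2.86 (rank 15), then Gata1 with 2.27 (rank 34), Slc4a1 with 1.64 (rank 105), Klf1 with 1.24 (rank 208) and Epor with 1.03 (rank 301). All 8 genes passed 1, as did 1.6% of all genes, and the median of the 8 was 2.57 against -0.10 over all genes. With 1 array on each side this has no replicate check and no test.

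Some markers of other cell types also differed between the same arrays, with 1 array on each side and no test. Of 12 endothelial markers 0 were higher by over 1 in replicate 1 and 5 were lower by as much, with list means of 6.83 in replicate 1 and 7.65 in replicate 2. Of 11 yolk sac and liver endoderm markers 2 were higher by over 1 in replicate 1, Ttr (transthyretin; 10.44 against 5.87) and Rbp4 (retinol-binding protein; 7.35 against 5.63), with list means of 6.24 and 5.43. The median difference of that list was 0.54, and its members Alb (-0.24), Apoa1 (-0.16) and Amn (-0.41) were lower in replicate 1. Cardiac muscle markers had means of 5.82 and 6.29, with 2 of 12 lower by over 1 in replicate 1. Macrophage and leukocyte markers (4.79 and 4.74), neutrophil markers (4.35 and 4.47) and platelet markers (5.28 and 5.24) differed little in their means. The part of these cells in the globin difference was not tested. In bulk samples more red cells and more RNA of these genes per cell cannot be told apart.

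**Figure D2:**
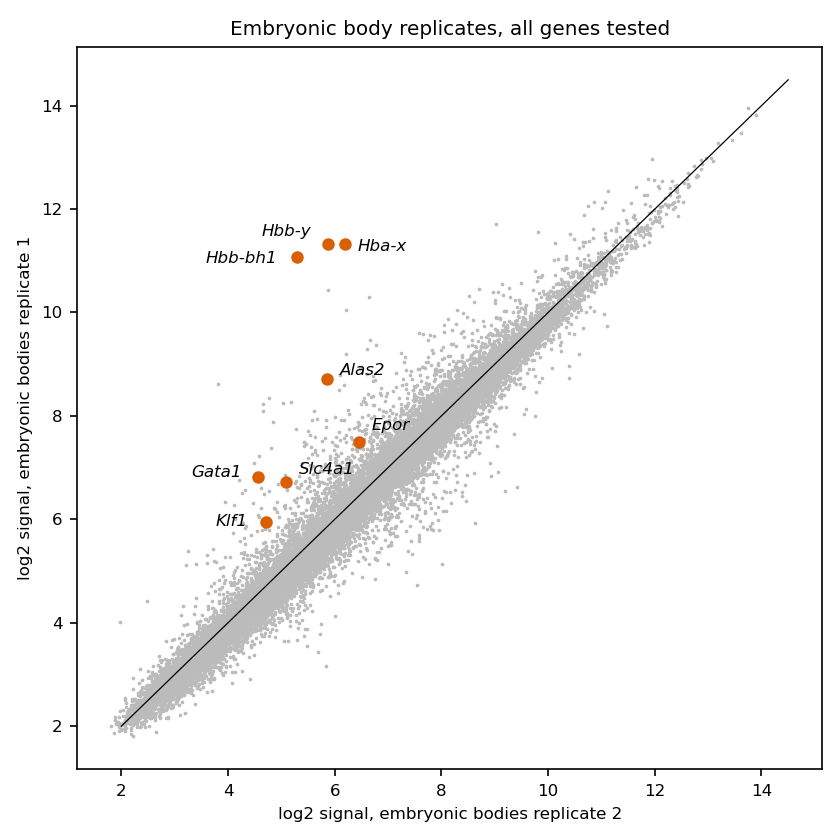
Log2 signal of 19920 genes (grey points) in embryonic body replicate 1 (vertical axis) against replicate 2 (horizontal axis), with the line of equality and the 8 red cell genes in orange. Hbb-bh1, Hbb-y and Hba-x lie farthest above the line, by 5.78, 5.44 and 5.12, and the other 5 lie above it by 1.03 to 2.86.

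Exon-level probe sets, which read shorter stretches of the same genes on the same arrays, showed the same gap for most but not all stretches. The 8 genes had 58 such probe sets, of which 40 were higher by over 1 in embryonic body replicate 1, against 9.92% of all 212097 probe sets with 1 symbol. All 3 probe sets of Hbb-y (3.17 to 5.82) and all 3 of Hbb-bh1 (4.68 to 5.68) were higher by over 1, as were 11 of 12 in Alas2 and 12 of 19 in Slc4a1. Hba-x had 3 of 4, between 4.13 and 6.30, and a probe set at -0.59 whose signals stayed between 2.02 and 5.07 on all arrays. All 6 probe sets of Hba-a1 and Hba-a2 were higher, by 3.68 to 4.38, but a pair of them held the same values on every array and is not independent. The transcription factors and the receptor were less uniform: Gata1 had 5 of 7, with a range of -1.42 to 4.30, Epor 2 of 7 and Klf1 1 of 3.

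**Figure D3:**
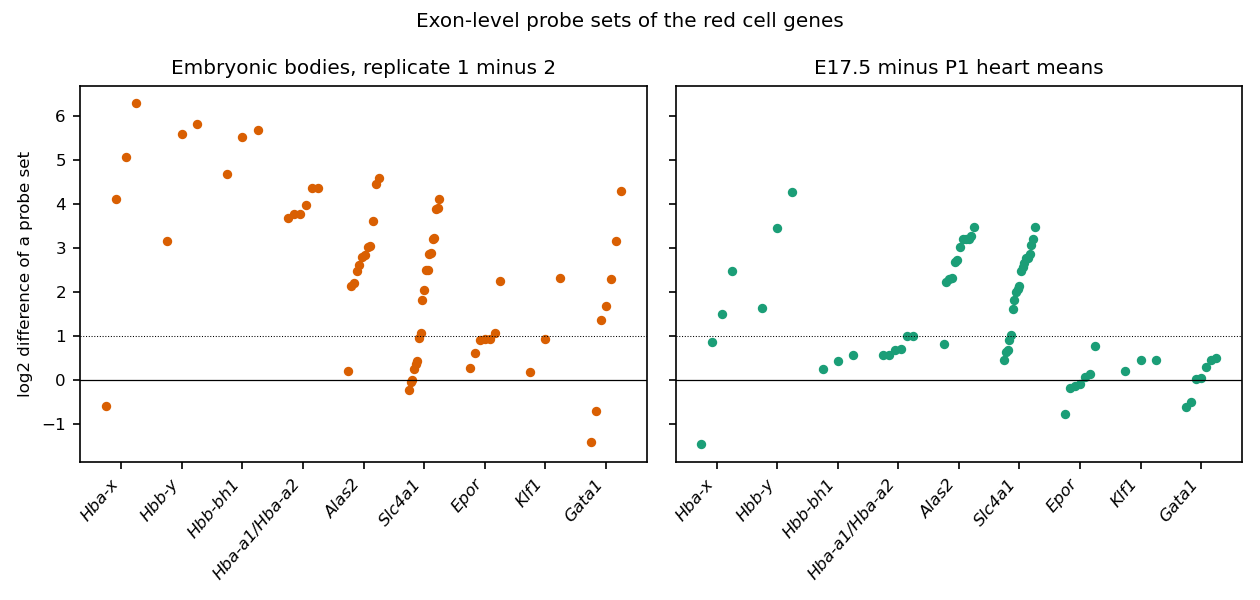
Log2 difference of each exon-level probe set (points) by gene, on the left for embryonic body replicate 1 minus replicate 2 and on the right for the E17.5 heart mean minus the P1 heart mean; the dotted line marks 1. On the left all probe sets of Hbb-y, Hbb-bh1 and the shared alpha-globin rows lie above 1, and on the right 11 of 12 of Alas2, 15 of 19 of Slc4a1 and 3 of 3 of Hbb-y do.

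From ES cells to embryonic bodies, the means of the embryonic globins and of Alas2 rose, and the rise rests mainly on replicate 1. By limma with Benjamini-Hochberg adjustment over all genes, 4 of 8 genes were called at an adjusted p under 0.05, all higher, where 20.6% of all genes tested were called in either direction. Hbb-bh1 rose by 4.77 ± 1.19 (SE, n = 2 arrays a group; 27.2-fold; limma adjusted p = 0.0126), Hbb-y by 4.34 ± 1.18 (limma adjusted p = 0.0201), Hba-x by 3.72 ± 1.09 (limma adjusted p = 0.0283) and Alas2 by 2.25 ± 0.69 (limma adjusted p = 0.0359). Epor was 0.73 higher (limma adjusted p = 0.0915), Klf1 0.56, Slc4a1 0.39 and Gata1 0.36 higher, none called. The median change of the 8 was 1.49 against -0.03 over all genes. These standard errors pool the spread of all 6 groups and are smaller than the embryonic body pair alone would give. The SDs of that pair were 4.09 in Hbb-bh1, 3.84 in Hbb-y, 3.62 in Hba-x and 2.02 in Alas2. In ES cells they were 0.035, 0.011, 0.217 and 0.09.

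Without embryonic body replicate 1 the fit holds no spread between embryonic bodies. The remaining array was then 1.88 ± 0.25 above ES cells in Hbb-bh1, and this gene alone stayed called as higher (limma adjusted p = 0.0003). Hbb-y was then 1.62 ± 0.54 higher (limma adjusted p = 0.0642), Hba-x 1.16 ± 0.40 (limma adjusted p = 0.0776) and Alas2 0.82 ± 0.47 (limma adjusted p = 0.332). Gata1 turned to -0.78 ± 0.21 and was called as lower (limma adjusted p = 0.0283). Without replicate 2 instead, 7 of the 8 genes were called as higher, all but Slc4a1, with Hbb-bh1 at 7.66 ± 0.25. Without either ES cell array none was called, and with the 6 culture arrays alone Hbb-y and Hbb-bh1 were. Quantile normalization of all 12 arrays ended the call of Alas2 (2.13 ± 0.71, limma adjusted p = 0.0562).

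From embryonic to cardiac bodies the embryonic beta-type globins and Alas2 fell. Of the 8 genes 3 were called, all lower, where 11.9% of all genes were called: Hbb-bh1 fell by 4.78 ± 1.19 (limma adjusted p = 0.0205), Hbb-y by 4.42 ± 1.18 (limma adjusted p = 0.0292) and Alas2 by 2.48 ± 0.69 (limma adjusted p = 0.0353). Hba-x was lower by 3.31 ± 1.09 and was not called (limma adjusted p = 0.0721). Without embryonic body replicate 1 only Hbb-bh1 stayed called, at -1.89 ± 0.25 (limma adjusted p = 0.000554), and without replicate 2 there were 7 calls. Without either cardiac body array, or with the culture arrays alone, there were 0. The call of Alas2 was lost with quantile normalization (-2.41, limma adjusted p = 0.0511) and that of Hbb-y with exon-level medians (-4.34, limma adjusted p = 0.0504). This comparison and the one before it share the embryonic body arrays, so they are not independent. Their standard errors pool all 6 groups in the same way.

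Cardiac bodies at day 14 lay close to ES cells in all 8 genes. By limma 0 of 8 were called, 0 had an unadjusted p under 0.05, and 9.8% of all genes were called. The changes ran from -0.44 in Gata1 to 0.41 in Hba-x, with a median of -0.05. The standard errors of the embryonic globins, 1.09 to 1.19, include the spread of the embryonic body pair. Without embryonic body replicate 1 the change of Hbb-y was -0.08 ± 0.44 and that of Hba-x 0.41 ± 0.33, and still none was called.

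In the hearts, the signals of the late red cell genes Alas2 and Slc4a1 and of Hbb-y were highest at E17.5. From E17.5 to P1, 2 of 8 genes were called by limma, both lower, where 5.13% of all genes were called. Alas2 fell by 3.01 ± 0.69 (8.05-fold; limma adjusted p = 0.0259) and Slc4a1 by 2.22 ± 0.50 (4.67-fold; limma adjusted p = 0.0224). Hbb-y was lower by 3.36 ± 1.18 and was not called (limma adjusted p = 0.135), though both P1 hearts, at 4.52 and 4.51, lay below both E17.5 hearts, at 7.13 and 8.62. Hba-x was lower by 1.38 ± 1.09, Hbb-bh1 by 0.43 and the means of Gata1, Klf1 and Epor differed by -0.19, -0.23 and 0.29, none called.

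The standard error of Hbb-y again carries the embryonic body spread. With the 6 heart arrays alone its change of -3.36 had an SE of 0.50 and was called (limma adjusted p = 0.00798). Without embryonic body replicate 1, 4 genes were called, Hbb-y (limma adjusted p = 0.000816) and Hba-x (limma adjusted p = 0.0312) joining the other two. The calls of Alas2 and Slc4a1 also depend on single heart arrays: without E17.5 replicate 2 there were 0 calls (Alas2 -2.45, limma adjusted p = 0.231; Slc4a1 -1.65, limma adjusted p = 0.23). Without P1 replicate 1 there were also 0, with Alas2 at -2.43 (limma adjusted p = 0.0738) and Slc4a1 at -1.80 (limma adjusted p = 0.0639). Without E17.5 replicate 1 only Slc4a1 stayed called. At exon level 11 of 12 probe sets of Alas2, 15 of 19 of Slc4a1 and 3 of 3 of Hbb-y were higher by over 1 at E17.5, against 7.55% of all probe sets with 1 symbol. With the median of its probe sets as the level of a gene neither call held: Alas2 was at -2.83 (limma adjusted p = 0.0594) and Slc4a1 at -2.05 (limma adjusted p = 0.12).

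The E17.5 replicates also differed in these genes. Replicate 2 was higher by 1.49 in Hbb-y, 1.29 in Hba-x, 1.15 in Slc4a1 and 1.11 in Alas2, and only 37 of all genes were higher there by over 1. Platelet markers had means of 5.79 and 6.04 in the pair, macrophage markers 6.19 and 6.19 and endothelial markers 8.99 and 8.91. From E17.5 to P1, 0 of 10 macrophage, 0 of 12 endothelial, 0 of 8 neutrophil and 1 of 6 platelet markers were called, the last higher. Over all genes 5.13% were called, so these counts in short lists are no result about these cells. How much blood each heart held was not measured.

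Between P1 and adult hearts 0 of 8 genes were called by limma and 0 had an unadjusted p under 0.05 (the smallest, of Epor, was 0.0871), where 30.2% of all genes were called. Alas2 was 0.80 ± 0.69 and Slc4a1 0.62 ± 0.50 higher in adults, and Epor 0.52 ± 0.28 lower. Hbb-bh1 was 0.84 ± 1.19 higher. With the 6 heart arrays alone its SE was 0.22 and it was called (limma adjusted p = 0.0204), as it was without either embryonic body array (limma adjusted p = 0.00847). The median of its 3 exon-level probe sets was not called in that comparison. The P1 and adult signals of Hbb-bh1, 3.06 to 4.22, were low, above only 6.4% to 17.8% of the genes on their arrays.

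Adult hearts stayed below E17.5 hearts in 3 of 8 genes, all lower, where 36.1% of all genes were called. Alas2 fell by 2.21 ± 0.69 (4.61-fold; limma adjusted p = 0.0248), Slc4a1 by 1.60 ± 0.50 (3.03-fold; limma adjusted p = 0.0238) and Hbb-y by 3.25 ± 1.18 (9.49-fold; limma adjusted p = 0.0488). The share of 3 in 8 is near that background. Quantile normalization ended the call of Hbb-y (-3.38, limma adjusted p = 0.0511), as did a fit with the replicate number as a block. Exon-level medians ended that of Slc4a1 (-1.73, limma adjusted p = 0.0574). A call was also lost on leaving out either ES cell array, either cardiac body array, either P1 heart array or E17.5 replicate 1. Without E17.5 replicate 2 or without adult replicate 1 there were 0 calls, without adult replicate 2 there was 1 (Slc4a1), and without embryonic body replicate 1 there were 4, Hba-x joining at -1.04 ± 0.33 (limma adjusted p = 0.0262). Adult replicate 2 was higher than replicate 1 by 1.30 in Hbb-y, 0.74 in Slc4a1 and 0.53 in Alas2. It was also higher in platelet markers, with list means of 8.38 against 7.10 (Ppbp 11.72 against 9.62, Gp9 10.38 against 7.81), and in neutrophil markers, with 5.72 against 4.67. All 10 macrophage and leukocyte markers rose from E17.5 to adult. The part of these cells in the red cell values was not tested.

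Cardiac bodies were far below E17.5 hearts in Alas2, Slc4a1 and Hbb-y, and here the calls of Alas2 and Slc4a1 held in each alternative that tested them, with adjusted p at most 0.00153 and 0.0109 by limma. Of 8 genes 3 were called, all lower, where 23.7% of all genes were called. Alas2 was lower by 6.25 ± 0.69 (76.0-fold; limma adjusted p = 4.54e-05), Slc4a1 by 3.24 ± 0.50 (9.44-fold; limma adjusted p = 0.000507) and Hbb-y by 3.69 ± 1.18 (12.9-fold; limma adjusted p = 0.0391). With the 4 arrays of both groups alone, Hba-x joined at -1.59 ± 0.33 (limma adjusted p = 0.00411). The call of Hbb-y was lost without E17.5 replicate 2 (-2.95, limma adjusted p = 0.249) and in other alternatives that left out 1 array. Endothelial markers were lower in cardiac bodies in 11 of 12 cases and macrophage markers in 6 of 10. The 3 comparisons with E17.5 hearts share these 2 arrays.

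**Figure D4:**
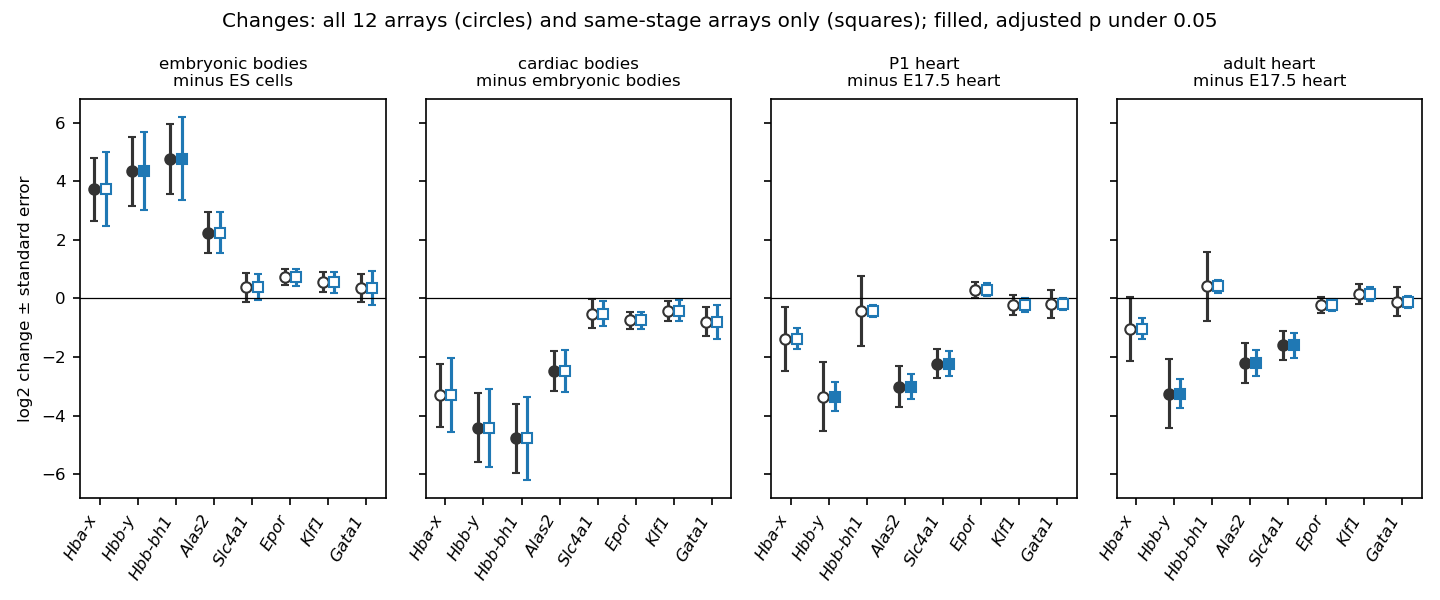
Log2 change ± standard error (vertical axis) of the 8 genes in 4 comparisons, from limma on all 12 arrays (circles) and on the 6 arrays of the same stage (squares); filled marks have an adjusted p under 0.05. In hearts the errors of the embryonic globins shrink when the cultures are left out, for Hbb-y from 1.18 to 0.50, while in the cultures they widen.

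Some genes on the other red cell lists changed from E17.5 to P1, where 5.13% of all genes were called. Of 15 red cell enzymes and late maturation genes 4 were called, all lower: Car2, a carbonic anhydrase, fell by 2.33 ± 0.53, Bpgm, which makes 2,3-bisphosphoglycerate, by 2.17 ± 0.30, Mkrn1 by 1.27 ± 0.27 and Bnip3l, a mitophagy receptor, by 1.03 ± 0.19. The median change of the 15 was -0.41 against 0.01 over all genes. Not all of these genes were low in the cultures. In ES cells Mkrn1 read 10.5 and 10.5 and Car2 8.0 and 8.8, against 8.3 and 9.3 and 7.6 and 8.8 at E17.5. Bnip3l was highest in adult hearts, at 11.7 and 11.5 against 10.7 and 11.1 at E17.5. Bpgm read 6.6 and 6.4 in ES cells and 8.3 and 9.5 at E17.5. Whether these falls follow red cells was not tested. Of 14 heme and iron genes Slc25a37 (mitoferrin) fell by 1.86 ± 0.31 and Steap3, an iron reductase, rose by 0.92 ± 0.23. Of 14 membrane and skeleton genes only Sptb (beta spectrin) was called, 0.67 ± 0.17 higher, and of 17 blood transcription factors and receptors only Cbfa2t3, 1.14 ± 0.19 higher, shares near that of all genes. The 3 other globin genes with rows of their own (Hbq1a, Hbq1b and Hbb-bh2) were not called here.

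In the embryonic bodies, as a group against ES cells, 3 of 17 blood transcription factors and receptors were called as higher and 1 as lower, where 20.6% of all genes were called. The shares called in this list and in the next 3 red cell lists are near that background and are no result about the lists. Fli1, an ETS factor of blood and endothelial cells, rose by 2.23 ± 0.21, Lmo2 by 1.81 ± 0.17 and Runx1 by 1.22 ± 0.24, and Bcl11a fell by 0.96 ± 0.22. Of 14 heme and iron genes Slc25a37 rose by 1.30 ± 0.31, Alad by 1.05 ± 0.24 and Ppox by 0.71 ± 0.20, the last 2 enzymes of heme synthesis, and Steap3 fell by 0.85 ± 0.23. Membrane genes went both ways, with Gypc and Sptb called as higher and Rhd and Dmtn as lower among 14, and of 15 enzymes and late genes Prdx2 was called as higher and Mkrn1 and E2f2 as lower. Endothelial markers were called as higher in 8 of 12 cases and as lower in 2 in the same comparison.

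Between the embryonic body replicates these lists differed less than the 8 genes. Higher by over 1 in replicate 1 were 4 of 14 membrane genes (among them Epb42, protein 4.2, at 7.23 against 4.58, and Rhag, a Rh-associated glycoprotein, at 5.15 against 3.61), 3 of 15 enzymes and late genes (among them Car2, 9.87 against 8.13), 2 of 17 transcription factors and receptors and 1 of 14 heme and iron genes. None in these 4 lists was higher by over 1 in replicate 2. The list medians were 0.07 to 0.34, against -0.10 over all genes. In E17.5 hearts, Slc25a37, Kel, Car2, Bpgm and Mkrn1 were higher by over 1 in replicate 2, the array that was also higher in Hbb-y, Hba-x, Slc4a1 and Alas2.

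**Figure D5:**
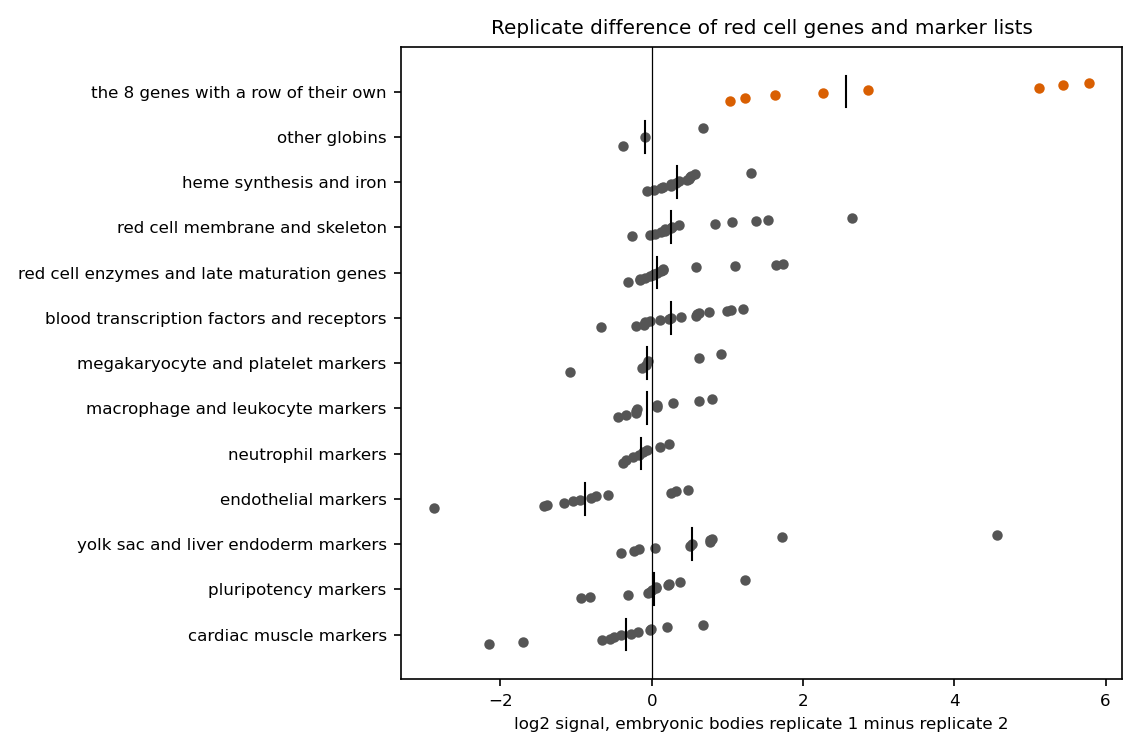
Log2 difference between embryonic body replicate 1 and replicate 2 (horizontal axis) of each gene (points), for the 8 red cell genes (orange) and for the lists of other red cell genes and of cell type markers (grey), with vertical bars for medians. The 8 genes have a median of 2.57, the 4 larger red cell lists 0.07 to 0.34 and the endothelial markers -0.88.

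Across the 12 arrays, the genes whose pattern was most like each gene's were found by Pearson correlation among 5722 genes whose values span at least 2, a description in which arrays of a group share their source and 1 array carries much of the range. Hba-x was most like Plac1 (r = 0.97), Epb42 (0.95), Pitx1 (0.95), Hbb-y (0.94) and Prss12 (0.94). Hbb-y was most like Epb42 (0.96), Hba-x (0.94), AW551984 (0.93), Plac1 (0.92) and Cdh3 (0.90). Hbb-bh1 was most like Tdo2 (0.99), Rfx6, B130016D09Rik, Mir376c and Foxf1 (0.97), all of which were highest in embryonic body replicate 1. Without that array, the r of Hbb-y with the genes named for it ran from 0.75 (Cdh3) to 0.89 (Epb42). That of Hbb-bh1 ran from 0.58 (Mir376c) to 0.89 (Rfx6).

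Alas2 and Slc4a1 followed each other with r = 0.95 with or without embryonic body replicate 1. Alas2 was next most like Ube2l6 (0.94), Tent5c (0.93), Upk1b (0.91) and Lum (0.91), and Slc4a1 was most like Tent5c (0.96), ahead of Alas2, Ube2l6, Upk1b and Upk3b. Tent5c reached 0.98 with both genes without embryonic body replicate 1. Gata1 was most like Hoxc9 (0.94), Cbln1, Foxa3, B4galnt2 and Cpn1, and these lay between 0.57 and 0.64 without that array. Epor and Klf1 span under 2 and were left out of this search. Without embryonic body replicate 1, Hba-x and Hbb-y kept r = 0.89, while Hba-x and Hbb-bh1 went from 0.92 to 0.37.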

How the data were processed

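The deposited values are log2 signals of 12 arrays, each deposited at gene level (35556 transcript clusters) and exon level (241576 probe sets), made by the authors with RMA in Affymetrix Power Tools per the submitters' processing notes, which give no versions. RMA subtracts background, normalizes between arrays by quantiles and summarizes probes. No further normalization was applied. Gene names came from the platform annotation: 21789 clusters had 1 symbol and were kept, the cluster with the highest mean standing for each of 1015 genes with several. Gene-level values entered a limma 3.58.1 fit (R 4.3.3) over 12 arrays and 6 group means, with 6 residual and 6.18 prior degrees of freedom, in 7 comparisons. Calls needed an adjusted p under 0.05 (Benjamini-Hochberg, over 19920 genes). The design counted 9 genes, of which 8 could be tested. In data simulated for embryonic bodies minus ES cells (19920 genes, 200 changed), the fit found 58% of changes of 1, 94% of 2 and 100% of 3, with 9 false among 185 calls. The simulation gave a gene the same spread in all groups and drew the changed genes from all genes. The residual SDs of Hba-x, Hbb-y and Hbb-bh1, 1.53 to 1.68, were among the largest of all genes. Those of Alas2 (0.961), Slc4a1 (0.675), Gata1 (0.664) and Klf1 (0.438) were above 99.9%, 99.4%, 99.4% and 94.9% of genes. The shares found in the simulation do not hold for any of these genes.

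The genes, lists and tests were chosen with earlier results of these data known. Named were all 9 genes, up to 4 called members of a list, the 10 largest embryonic body differences each way and the 5 most alike genes. List genes named for a difference between replicates were chosen after their values were seen. The labels do not say whether replicate numbers pair the samples across groups, and the main fit used no pairing. Over 15 pairs of groups the replicate differences correlated at -0.18 to 0.29 across genes, 2 pairs over 0.1. These correlations cannot settle whether samples with the same number shared a batch. Alternatives were a replicate block, a filter on level, quantile normalization, averaged clusters, an intensity trend, the exon-level median, same-stage arrays only, and each array left out. Python 3.11.15, pandas 2.3.3 and matplotlib 3.10.9 made the summaries and figures. Few arrays limit the precision.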

Additional observations from a re-analysis of the deposited data

How the results depend on the processing

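Of 15 called changes, over up to 19 alternatives each (12 of them leaving out an array), 217 values stayed called and 68 lost the call, none turning sign. With each array left out, the genes called among the 8 ran from 0 to 7 for embryonic bodies minus ES cells, 0 to 7 for cardiac minus embryonic bodies, 0 to 4 for P1 minus E17.5, 0 to 1 for adult minus P1 and 0 to 4 for adult minus E17.5. With same-stage arrays only they were 2, 0 and, for adult minus P1, 1. With exon-level medians they were 0 for P1 minus E17.5 and 1 for adult minus P1 (Klf1, 1.66). The Klf1 probe sets did not move alike there. The first read 4.215 and 3.583 at P1 and 5.691 and 7.618 in adults. The second read 6.261 and 6.842 against 6.373 and 6.175, and the third 4.159 and 4.336 against 4.58 and 5.058. Calls over all genes ran, with arrays left out, from 2384 to 4958 for embryonic bodies minus ES cells, 1217 to 3226 for cardiac minus embryonic bodies, 883 to 2539 for cardiac bodies minus ES cells, 303 to 3056 for P1 minus E17.5 and 2462 to 5669 for cardiac bodies minus E17.5. For P1 minus E17.5 they were 581 with exon-level medians and 562 with heart arrays only. The replicate block left 2 of 3 genes called for adult minus E17.5 (Hbb-y, limma adjusted p = 0.058) and changed no other count of the 8. The cause of these shifts was not tested, beyond fewer arrays.

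Changes that were not called turned sign as follows. With arrays left out, for embryonic bodies minus ES cells Slc4a1 ran from -0.43 to 1.20, Klf1 from -0.06 to 1.18 and Gata1 from -0.78 to 1.49. For cardiac minus embryonic bodies they ran from -1.34 to 0.30, -1.04 to 0.20 and -1.93 to 0.34. For cardiac bodies minus ES cells Hbb-y ran from -0.16 to 0.01, Hbb-bh1 from -0.21 to 0.19, Slc4a1 from -0.35 to 0.082, Epor from -0.13 to 0.072 and Klf1 from -0.063 to 0.34. Klf1 ran from -0.47 to 0.011 for P1 minus E17.5, -0.10 to 0.40 for adult minus E17.5 and -0.10 to 0.24 for cardiac bodies minus E17.5. Gata1 ran from -0.26 to 0.021 for adult minus E17.5 and -0.062 to 0.21 for adult minus P1, where Hbb-y ran from -0.54 to 0.76. With exon-level medians Hbb-bh1 was 0.16, Alas2 0.28 and Epor 0.048 for cardiac bodies minus ES cells, Hba-x -0.045 and Hbb-y -0.006 for adult minus P1, Gata1 0.10 for adult minus E17.5 and -0.63 for cardiac bodies minus E17.5. Quantile normalization gave Hbb-bh1 0.041 for cardiac bodies minus ES cells. Having 2 arrays a group limits all of this.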

Other observations

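Outside the red cell lists, the embryonic body replicates differed most in genes of several other kinds. After the 3 embryonic globins, the largest differences toward replicate 1 were in Tdo2 (tryptophan dioxygenase; 8.62 against 3.81), Ttr (10.44 against 5.87), Foxf1 (a forkhead factor; 10.06 against 6.21), Car4 (a membrane carbonic anhydrase; 10.29 against 6.65), Dpp4 (8.35 against 4.76), Spink1 (8.23 against 4.66) and Plac1 (8.09 against 4.66).

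Toward replicate 2 the largest were Emcn (endomucin of endothelial cells; 5.14 against 8.02), Ebf1 (4.74 against 7.54), Enpp3 (6.63 against 9.41), Foxc1 (5.93 against 8.63), Chrna6 (3.16 against 5.84), Klhl4 (6.54 against 9.20), Ebf2 (4.97 against 7.35), Macc1 (3.44 against 5.69), Anxa1 (5.79 against 7.95) and Myh7 (beta myosin heavy chain; 6.91 against 9.07). No difference toward replicate 2 passed 3, while 13 toward replicate 1 did. With 1 array on each side these are values without a test.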
